A study of Mus musculus with 10 samples.

Results

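The genes described here are the 10 subunits of the BAF (mammalian SWI/SNF) chromatin remodeling complex that are exchanged, or whose relative use is thought to shift, when neural precursors become neurons: Actl6a, Actl6b, Ss18, Ss18l1, Phf10, Dpf1, Dpf2, Dpf3, Smarca4 and Smarca2. They were chosen by name and all 10 were found among the 31053 genes of the count matrices. Their counts of unique molecular identifiers (UMIs, 1 per captured transcript) were followed from progenitor-like to young and mature neuron-like cells of the developing mouse cortex, and between embryos with and without Gatad2b. Gatad2b encodes a subunit of NuRD, another chromatin remodeling complex.

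BAF complexes use the energy of ATP to slide or evict nucleosomes, and each is assembled from gene families that offer one slot several alternative proteins. In neural precursors the complex carries the actin-like protein Actl6a, the PHD-finger protein Phf10 or Dpf2, and Ss18. As precursors leave the cell cycle these give way to Actl6b, to Dpf1 or Dpf3, and to Ss18l1, an exchange known for its need in dendrite growth. The ATPase is either Smarca4 or Smarca2. The microRNAs miR-9* and miR-124 are known to repress Actl6a in new neurons.

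Whole cortex was taken at embryonic stage E16.5 from 3 wild-type (WT) embryos, 4 Gatad2b stop/+ (Het) embryos and 3 Gatad2b stop/stop (KO) embryos on a C57BL/6N-Atm1Brd background. The stop allele is a germline trapping cassette placed in an intron between the first and second coding exons, with the later exons retained, so UMIs at the 3′ end of the gene need not vanish in KO. The tissue was dissociated with papain, without sorting, and each embryo gave 1 library with 10X Genomics 3′ version 3 chemistry. The sex of the embryos was not used. Library names carried one prefix in WT1 to WT3 and Het4 and another in Het1 to Het3 and KO1 to KO3. What the prefix stands for is not stated in the sources used here. Between KO and WT, genotype and prefix cannot be told apart, so values within a prefix are given beside genotype results: KO against Het1 to Het3, and Het4 beside the WT embryos.

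Of 80071 barcodes, 65779 held 1000 UMIs or more with no more than 10% of them mitochondrial, and these were kept. The kept UMIs summed to between 82872641 and 123737385 per embryo, and the median cell of an embryo held 10795 to 17077.5 UMIs. No pair of libraries shared more than 19 barcodes (0.325% of the smaller). The label check, Gatad2b over all cells, followed the genotypes. It stood at 139, 131 and 133 CPM in the WT embryos, 94.2, 89.8, 90.0 and 95.7 CPM in the Het embryos and 50.9, 52.8 and 57.3 CPM in the KO embryos, with no overlap between the 3 groups. Levels of this kind are CPM, a gene's share of all UMIs of the summed cells on a common scale, adjusted between libraries by TMM, the trimmed mean of M-values.

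Classes were built from clusters named by marker genes. Progenitor-like cells were 3 clusters, led by Eomes and Neurog2 (cluster 8, intermediate progenitor-like), by Ttr and genes of mitosis (cluster 12, dividing pallial progenitor-like) and by Fabp7 and Hes5 (cluster 13, radial glia-like), with 455 to 803 cells per embryo. Young neuron-like cells were 1 cluster led by Unc5d, with 600 to 1003 cells per embryo. Mature neuron-like cells, which are mature only relative to the stage of the embryo, were 1 upper-layer cluster led by Inhba (cluster 0) and 3 deep-layer clusters led by Fezf2 (cluster 3), Hs3st4 and Tle4 (cluster 6) and Crym (cluster 7), with 1472 to 2809 cells per embryo. The deep-layer name was a near tie for 2 of them: cluster 3 scored 1.04 for upper-layer and 0.887 for deep-layer markers, and cluster 7 scored 0.845 for young excitatory and 0.717 for deep-layer markers, with 2 and 1 deep-layer markers among the 10 leading genes deciding. At resolution 0.8, 1973 cells formed a cluster named upper-layer neuron-like whose leading genes included Ntf3, Nrip1 and Oma1, which are also among those of cluster 3. In the inhibitory lineage, ganglionic eminence progenitor-like cells numbered 141 to 267 and interneuron-like cells 792 to 1425 per embryo. Of the 10 genes of a separate list of neuronal maturity, 10 rose from progenitor-like to young and 8 from young to mature neuron-like cells. The summed level of those 10 genes in WT was 716 to 764 CPM in progenitor-like, 2643 to 2706 CPM in young and 2504 to 2591 CPM in mature neuron-like cells, so in WT the sum was lower in mature than in young cells without overlap. In the mutants it was higher in mature cells without overlap, at 1949 to 2222 CPM in young and 2229 to 2545 CPM in mature cells of Het and 1572 to 1941 CPM and 2244 to 2478 CPM in those of KO. Ttr is a choroid plexus gene, and the choroid plexus list had a higher score in cluster 12 (3.65) than the list of dividing cells (2.62), but too few of its markers were found in enough cells to name the cluster. In cluster 13 the oligodendrocyte precursor list (3.97) scored above that of radial glia (3.46), and the markers among the leading genes decided the name. Choroid-type cells, with at least 1% of their UMIs from Ttr, were counted in the progenitor-like class of WT1 (29 cells) and WT2 (8 cells) and in none of the other 8 embryos. At resolution 0.8, 791 cells led by Ttr formed a cluster named radial glia-like, with a median of 1631 UMIs and a dividing score of 0.633. How much of cluster 12 was dividing was not tested. Over all cells, those under 3000 UMIs numbered 2981 in WT, 1553 in Het and 817 in KO. Cluster 12 was left out, as an alternative, from the main comparisons between classes, of Het and KO with WT, and of their interaction. Other results with progenitor-like cells kept it, among them those within the prefix, with a prefix term or with 1 embryo left out. Thinned shares and marker sums kept it too.

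The promoters of 4 members are shown because the first 2 encode the exchanged actin-like pair and the others the 2 PHD-finger genes that were highest in neurons relative to progenitors. They run from 250 bases before to 50 bases after the start of transcription in RefSeq (GRCm38.p6), 5′ to 3′ on the gene's own strand. Capitals mark matches, on either strand, to CCAAT, the core of a CCAAT box, and to GGGCGG, that of a GC box. RefSeq promoter entries were at hand for 9 of the 10 members.
Actl6a (chr3:32708296-32708595, plus strand): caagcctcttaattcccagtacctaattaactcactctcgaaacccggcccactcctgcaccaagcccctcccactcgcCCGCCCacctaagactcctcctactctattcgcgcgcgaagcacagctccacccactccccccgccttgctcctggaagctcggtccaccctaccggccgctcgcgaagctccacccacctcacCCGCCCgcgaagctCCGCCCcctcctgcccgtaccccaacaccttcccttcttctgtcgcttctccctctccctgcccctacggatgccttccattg
Actl6b (chr5:137553296-137553595, plus strand): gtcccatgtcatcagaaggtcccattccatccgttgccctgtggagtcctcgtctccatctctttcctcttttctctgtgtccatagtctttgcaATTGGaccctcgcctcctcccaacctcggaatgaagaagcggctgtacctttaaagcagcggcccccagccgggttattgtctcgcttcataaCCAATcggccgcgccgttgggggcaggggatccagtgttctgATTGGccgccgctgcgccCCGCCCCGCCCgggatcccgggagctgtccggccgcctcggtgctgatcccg
Dpf1 (chr7:29303755-29304054, plus strand): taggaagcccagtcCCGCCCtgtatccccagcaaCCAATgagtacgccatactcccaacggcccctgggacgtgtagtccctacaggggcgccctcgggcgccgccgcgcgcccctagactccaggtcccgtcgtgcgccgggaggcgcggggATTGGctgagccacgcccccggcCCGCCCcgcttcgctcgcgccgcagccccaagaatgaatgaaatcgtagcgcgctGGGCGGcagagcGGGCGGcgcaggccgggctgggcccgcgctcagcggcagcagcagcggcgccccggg
Dpf3 (chr12:83487687-83487986, minus strand): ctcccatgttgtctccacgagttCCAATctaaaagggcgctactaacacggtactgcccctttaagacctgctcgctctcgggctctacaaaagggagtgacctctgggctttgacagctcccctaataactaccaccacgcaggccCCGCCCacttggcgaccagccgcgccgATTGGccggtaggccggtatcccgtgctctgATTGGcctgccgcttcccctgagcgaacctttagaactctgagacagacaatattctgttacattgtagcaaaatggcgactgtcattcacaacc

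The promoter of Actl6a, the gene of the progenitor form, held no CCAAT and 3 GGGCGG. That of Actl6b held 3 CCAAT and 2 GGGCGG, Dpf1 held 2 and 4, and Dpf3 held 3 and 1. Of the other members with an entry, Dpf2 held 1 CCAAT and Phf10, Ss18l1, Smarca2 and Smarca4 none, so genes of both the progenitor and the neuronal forms were without one. Of 32851 promoters of the same length, 37.4% held at least 1 CCAAT and 35.7% at least 1 GGGCGG, and the matches are a description of these letters only. The other sequence relevant to the exchange is the mature miR-9-3p (the strand once named miR-9*), which RefSeq places at 3 loci on chromosomes 3, 7 and 13. Its seed, bases 2 to 8, is in capitals, and below it stands the stretch of the Actl6a transcript after the stop codon that pairs with the seed, with the matching bases in capitals.
miR-9-3p: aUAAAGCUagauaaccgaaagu
Actl6a, chr3:32726629-32726658, plus strand: tcaacgtctgtAGCTTTAgtacactcagga

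The match in Actl6a begins at base 38 of the 371 bases after the stop codon. Smarca2 also held 1 match and the other 8 members held none. Over 20894 genes 11.3% held a match, and over the 1590 genes within 1.2 times the length of the Actl6a stretch 2.39% did. MicroRNA levels were not measured in these libraries.

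Along the excitatory lineage, the 2 actin-like genes moved in opposite directions in every embryo. Levels set side by side across classes were scaled by TMM over the class sums of one lineage together, and those compared between genotypes further on were scaled within a class, so the same gene, class and embryo can have slightly different values in the 2 sets. Actl6a, the progenitor form, stood over the 10 embryos at 110.4 to 151 (median 129) CPM in progenitor-like cells, 77.4 to 109 (median 96.3) CPM in young neuron-like cells and 44.0 to 60.5 (median 50.2) CPM in mature neuron-like cells. The ranges of the 3 classes did not overlap, and the level fell at both steps. Actl6b, the neuronal form, stood at 21.7 to 34.4 (median 26.5) CPM, 102 to 152 (median 134) CPM and 161 to 203 (median 182) CPM in the same order, again without overlap. The log2 fold change from progenitor-like to mature neuron-like cells was -1.33 ± 0.0234 (SE, adjusted p = 6.83e-25) for Actl6a and 2.77 ± 0.0415 (SE, adjusted p = 3.43e-26) for Actl6b, by edgeR's quasi-likelihood F-test with the embryo as a block and Benjamini-Hochberg adjustment over all genes. Most of the Actl6b difference lay in the first step, 2.28 ± 0.0422 from progenitor-like to young neurons against 0.49 ± 0.0359 from young to mature neurons. For Actl6a the second step was the larger, -0.90 ± 0.0235 against -0.44 ± 0.0237 in the first. Within an embryo, the ratio of Actl6b to Actl6a was 14.7 to 21.98 times (median 17.2) higher in mature neuron-like than in progenitor-like cells.

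**Figure D1:**
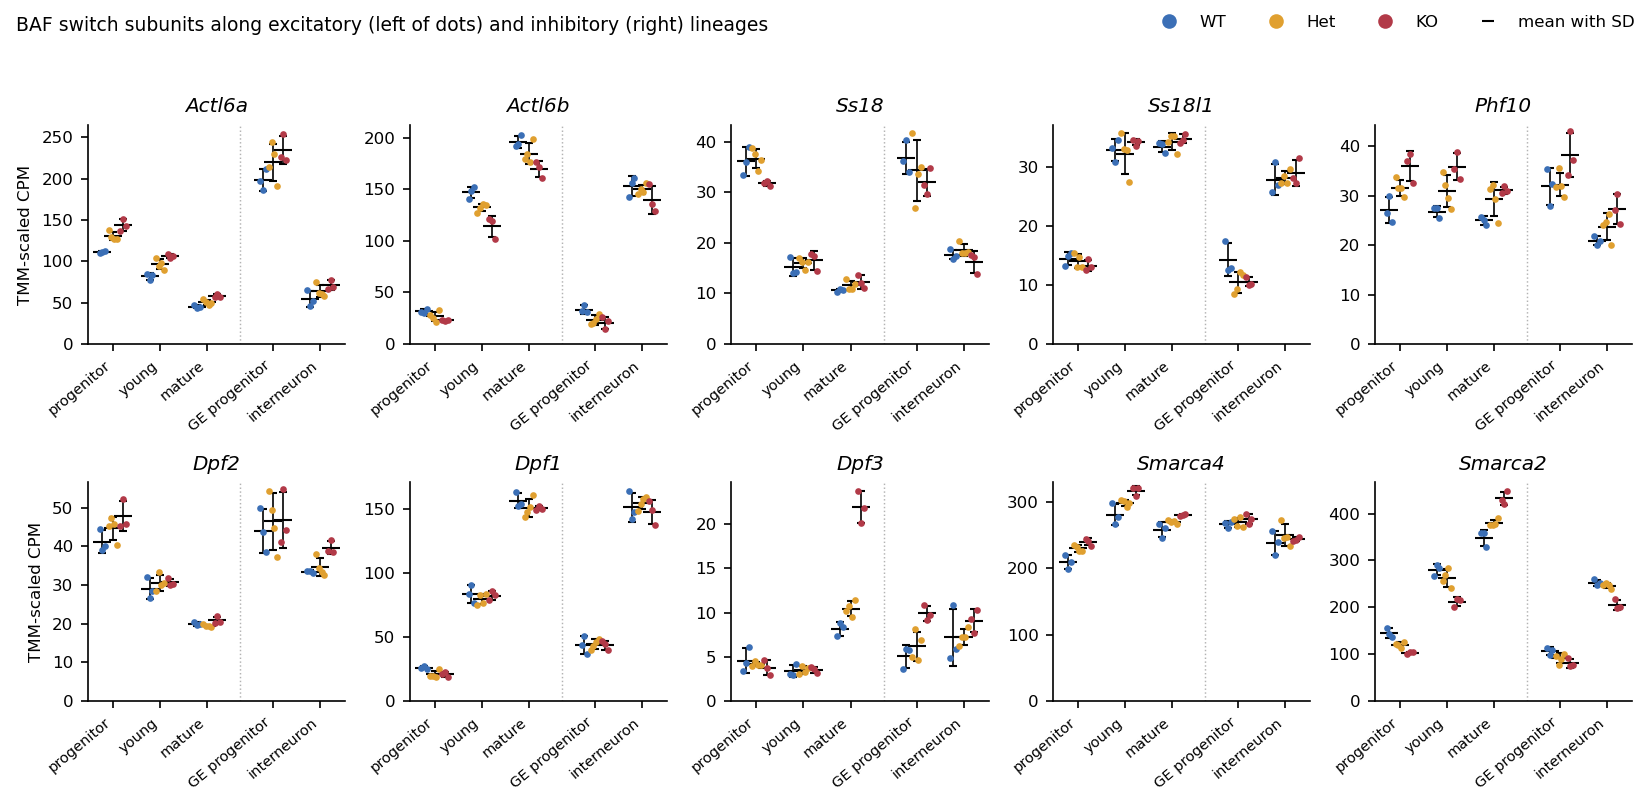
Level of each of the 10 BAF subunits (TMM-scaled CPM, axis from 0) in progenitor-like, young and mature neuron-like cells of the excitatory lineage and, right of the dotted line, in ganglionic eminence (GE) progenitor-like and interneuron-like cells of the inhibitory lineage. Points are embryos colored by genotype and bars are the mean with SD. Actl6a, Dpf2 and Ss18 descend and Actl6b, Dpf1 and Smarca2 climb from progenitor-like to mature neuron-like cells, and the KO points of Dpf3 stand above the others in mature cells.

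Ss18 and its neuronal relative Ss18l1 (CREST, a calcium-responsive transactivator) showed the same opposition. Ss18 fell from 31.3 to 39.0 (median 35.1) CPM in progenitor-like cells to 14.0 to 17.8 (median 16.2) CPM in young and 10.3 to 13.7 (median 10.96) CPM in mature neuron-like cells, so that its progenitor range did not overlap the neuronal ones. Ss18l1 rose from 12.5 to 15.4 (median 13.8) CPM to 27.5 to 35.7 (median 33.4) CPM in young neurons and was at 32.2 to 35.6 (median 34.2) CPM in mature ones. Its 2 neuronal ranges overlapped. The log2 fold changes over the whole span were -1.61 ± 0.0503 (SE, adjusted p = 8.3e-20) for Ss18 and 1.30 ± 0.0389 (SE, adjusted p = 3.3e-20) for Ss18l1. The rise of Ss18l1 was complete in young neurons, with 1.25 ± 0.0418 in the first step and 0.05 ± 0.0340 in the second, which did not pass the test. Ss18 fell by 1.13 and a further 0.47 on the log2 scale in the 2 steps. The ratio of Ss18l1 to Ss18 was 6.34 to 9.37 times (median 7.55) higher in mature neuron-like than in progenitor-like cells of the same embryo.

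The 4 PHD-finger genes, which read histone tails, did not move as 2 matched pairs. Dpf2, a broadly used subunit, fell from 39.0 to 52.2 (median 45.3) CPM to 26.7 to 33.3 (median 30.1) CPM and 19.3 to 21.98 (median 19.8) CPM, with a log2 fold change over the span of -1.15 ± 0.0329 (SE, adjusted p = 1.29e-20). Phf10, the progenitor form in the textbook scheme, was at 24.7 to 38.4 (median 31.5) CPM in progenitor-like, 25.4 to 38.8 (median 30.8) CPM in young and 24.1 to 32.1 (median 29.9) CPM in mature neuron-like cells. Those 3 ranges overlapped throughout. Its log2 fold change over the span was -0.15 ± 0.0313 (SE, adjusted p = 0.000132), under the limit of 0.25 that a call required, so Phf10 was not called at any step.

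Dpf1, a neuronal form, rose at both steps, from 18.9 to 27.1 (median 22.1) CPM to 75.4 to 90.7 (median 82.6) CPM and 144 to 163 (median 152) CPM, without overlap. Its log2 fold change over the span was 2.77 ± 0.0418 (SE, adjusted p = 4.02e-26), and its ratio to Dpf2 was 11.3 to 18.7 times (median 15.8) higher at the end than at the start. Dpf3, the other neuronal form, took another course. It was low in progenitor-like cells, 2.96 to 6.07 (median 4.10) CPM, and in young neurons, 2.97 to 4.14 (median 3.41) CPM, and was higher in mature neuron-like cells, at 7.33 to 23.7 (median 10.49) CPM. The first step was -0.25 ± 0.221 (SE, adjusted p = 0.302) and did not pass, and the second was 1.87 ± 0.175 (SE, adjusted p = 6.99e-10). The wide range in mature cells followed the genotypes and the clusters within the class, described further on. The 2 steps also depended on how the classes were drawn: with classes gated on marker genes in single cells, Dpf3 changed by 0.97 in the first step and by -0.45 in the second, and its difference over the span, 0.52, was not called.

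Among the ATPases, Smarca2 rose at both steps, from 101 to 156 (median 121) CPM to 201 to 291 (median 261) CPM and 329 to 448 (median 377) CPM. Its log2 fold change over the span was 1.67 ± 0.0807 (SE, adjusted p = 6.36e-16). Smarca4 was highest in young neurons, at 267 to 322 (median 299.9) CPM, against 199 to 245 (median 229.6) CPM in progenitor-like and 246 to 282 (median 271) CPM in mature neuron-like cells. It rose by 0.40 ± 0.0155 in the first step, and the second, -0.15 ± 0.0151, was too small for a call. Over the span Smarca4 stood at 0.25 ± 0.0152 (SE, adjusted p = 7.23e-14), a call at the edge of the limit that was lost among cells of 3000 UMIs or more and without WT2. The ratio of Smarca2 to Smarca4 was higher in mature neuron-like than in progenitor-like cells in 10 of 10 embryos, by 1.89 to 2.04 times in WT, 2.63 to 2.77 times in Het and 3.46 to 3.73 times in KO.

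In counts, 5 members rose and 3 fell from progenitor-like to young neuron-like cells, where 30.4% of all tested genes rose and 33.1% fell. From young to mature neuron-like cells 4 rose and 3 fell, against 27.3% and 25.1% of all genes. Over the span 6 rose and 3 fell, against 34.5% and 36.8%. Change in one direction or the other was thus common among all genes. The median absolute log2 fold change over the span was 1.47 for the members and 0.55 for all tested genes, a description without a test. In bulk sums of this kind, fewer cells of a type within a class and less RNA per cell cannot be told apart.

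The inhibitory lineage, made in the ganglionic eminences, repeated the exchange of the actin-like and Ss18 pairs. From ganglionic eminence progenitor-like to interneuron-like cells, Actl6a fell from 186 to 254 (median 218) CPM to 45.6 to 77.9 (median 63.7) CPM and Actl6b rose from 14.4 to 37.9 (median 25.1) CPM to 129 to 161 (median 149) CPM. Neither pair of ranges overlapped. The log2 fold changes were -1.79 ± 0.0501 (SE, adjusted p = 1.69e-16) and 2.54 ± 0.0820 (SE, adjusted p = 1.43e-15), and the ratio of Actl6b to Actl6a was 13.6 to 30.8 times (median 20.9) higher in the interneurons. Ss18 changed by -0.97 ± 0.0694 and Ss18l1 by 1.30 ± 0.0901.

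In the other slots, Dpf1 rose by 1.78 ± 0.0440 and Dpf2 changed by -0.35 ± 0.0537, a smaller fall than the -1.15 of the excitatory lineage, though the 2 lineages were not compared by a test. Phf10 passed here, at -0.50 ± 0.0541, and Dpf3 did not, at 0.18 ± 0.126. Smarca2 rose by 1.36 ± 0.0435 while Smarca4, at -0.14 ± 0.0290, was not called. That made 4 members higher and 4 lower, where 38.3% and 34.7% of all genes were. The interneuron-like class was shallow, with a median of 7480 UMIs per cell against 17152 in the progenitors.

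The remaining BAF genes were a list of 19 core and accessory subunits. From progenitor-like to young neurons 10 rose and none fell, where 30.4% and 33.1% of all genes did, with the largest rises in Bicral (0.72 ± 0.0419), Bcl7a (0.69 ± 0.0254), Smarcc2 (0.61 ± 0.0182, a scaffold subunit) and Actb (0.55 ± 0.0286, actin itself, which has many other uses). From young to mature neurons none rose and 8 fell, against 27.3% and 25.1% of all genes, led by Smarcd2 (-0.66 ± 0.0776), Arid2 (-0.59 ± 0.0259, a subunit of the PBAF form), Bcl7a (-0.55 ± 0.0248) and Smarce1 (-0.50 ± 0.0241). Over the span 7 rose and 7 fell, against 34.5% and 36.8%. Smarcd3 rose by 0.66 ± 0.0389 beside Bicral (0.82 ± 0.0383), Actb (0.58 ± 0.0286) and Smarcc2 (0.58 ± 0.0179), while Smarcd2 (-0.80 ± 0.0774), Bcl7c (-0.63 ± 0.0286), Pbrm1 (-0.44 ± 0.0196, which defines PBAF) and Arid2 (-0.36 ± 0.0262) fell. In the inhibitory lineage 6 rose and 9 fell, against 38.3% and 34.7%, with Smarcd3 (1.43 ± 0.0484), Arid1b (0.45 ± 0.0571), Smarcc2 (0.40 ± 0.0312) and Bicral (0.27 ± 0.0854) at one end and Smarcc1 (-1.05 ± 0.0307), Pbrm1 (-1.03 ± 0.0265), Smarcd2 (-0.78 ± 0.141) and Bcl7a (-0.74 ± 0.0358) at the other. Values in parentheses are log2 fold changes ± SE. The median absolute change of the 19 over the span was 0.29 in the excitatory lineage, below the 1.47 of the members and the 0.55 of all genes.

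Single cells gave the same order at equal depth. After each cell was thinned to 3000 UMIs, Actl6a was found with at least 1 UMI in 27.9% to 34.9% (median 31.5%) of the progenitor-like cells of an embryo, 19.02% to 27.1% (median 24.2%) of young and 12.05% to 17.3% (median 14.0%) of mature neuron-like cells. Actl6b was found in 5.42% to 10.7% (median 7.80%), 25% to 36.4% (median 32.6%) and 38.1% to 46.3% (median 41.5%). Without thinning the medians for Actl6b were 27.5%, 78.1% and 94.3%, and those for Actl6a were 76.7%, 70.0% and 63.1%. Erythroid-like cells, which should lack Actl6b, gave 0% to 4.49% (median 1.44%) after thinning, so the progenitor shares lay above that background, although the 2 ranges came near each other. The median cell held 15036 UMIs in the progenitor-like class, 13204 in young neurons, 20898 in mature neurons and 9178 in erythroid-like cells before thinning. Cells under 3000 UMIs were left out, 678 of them progenitor-like, 25 young, 44 mature and 279 erythroid-like, so the loss among these classes fell mostly on progenitors.

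Both transcripts in one cell were found in 0.964% to 3.49% of thinned progenitor-like cells, 6.16% to 9.34% of young neurons and 4.46% to 6.93% of mature neurons. Among young neurons with an Actl6b UMI, Actl6a was also found in 17.6% to 28.5%, and among those without one in 19.8% to 29.2%. At this depth the 2 transcripts therefore did not divide young neurons into separate sets. A cell without a UMI at 3000 UMIs may still express the gene.

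Across 13 classes with enough cells, levels in WT (mean ± SD of 3 embryos, plain CPM) ordered the members as follows. Actl6a was highest in dividing ganglionic eminence progenitor-like cells (189.7 ± 11.1 CPM), then dividing pallial progenitor-like cells (154 ± 15.0), and radial glia-like (104 ± 4.34) and intermediate progenitor-like cells (104 ± 3.84) overlapped each other. It was lower in deep-layer (45.1 ± 2.31) and upper-layer neuron-like cells (43.6 ± 1.92), which also overlapped, and lowest in erythroid-like cells (4.30 ± 2.15). Actl6b was highest in Cajal-Retzius (199 ± 10.54), deep-layer (198 ± 6.79) and upper-layer neuron-like cells (188 ± 7.84), whose ranges chained into each other. A gap separated all the neurons, the lowest being young excitatory neuron-like cells (149 ± 5.75), from intermediate progenitor-like cells (47.8 ± 4.85) and radial glia-like cells (20.3 ± 2.61). Striatal inhibitory neuron-like cells were high in both genes, with Actl6a at 94.9 ± 4.25 CPM, next below intermediate progenitor-like and radial glia-like cells, and Actl6b at 167 ± 9.90 CPM. At resolution 0.8, 2121 cells led by Pbx3 and Tshz1, which are also leading genes of a striatal cluster, were named ganglionic eminence progenitor-like. That name was a near tie, with 0.506 against 0.472 for interneuron markers. The part of a mix of cells in the 2 levels was not tested.

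Cajal-Retzius neurons, the earliest-born cells of layer I, set the 2 neuronal PHD-finger genes apart. Dpf1 was 40.4 ± 3.46 CPM there, among the progenitor and microglia-like classes, against 162 ± 11.2 in interneuron-like, 158 ± 6.74 in upper-layer and 151 ± 5.49 in deep-layer neuron-like cells. Dpf3 by contrast was highest in Cajal-Retzius neuron-like cells (21.1 ± 1.16 CPM), above deep-layer neuron-like cells (12.4 ± 1.59) and, with no overlap to either, upper-layer neuron-like cells (3.14 ± 0.474). The other 10 classes lay between 0.222 ± 0.385 and 7.70 ± 3.41 CPM, and 10 of the 12 pairs of neighbours in the order overlapped. The deep-layer class pools 3 clusters that were unlike in Dpf3. In WT the Crym cluster stood at 20.7 to 26.6 CPM, not below Cajal-Retzius neuron-like cells, and the Hs3st4 and Tle4 cluster at 17.6 to 19.2 CPM. The Fezf2 cluster stood at 2.38 to 2.51 CPM, under the upper-layer mean. Of the Cajal-Retzius neuron-like cells 26.1% were marked as doublets (cells sharing a barcode) and were kept. The part of doublets in the levels of that class was not tested.

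Ss18 was highest in dividing pallial progenitor-like cells (52.2 ± 11.04 CPM) and lowest among neurons in the upper layers (6.95 ± 0.439), below the deep layers (13.7 ± 0.708) without overlap. Ss18l1 was the least divided, with 11 of 12 neighbouring classes overlapping from upper-layer neurons (34.1 ± 1.36) down, and its single gap below intermediate progenitor-like cells (23.05 ± 1.58). Smarca2 was highest in deep-layer neuron-like cells (381 ± 29.6), above upper-layer neuron-like cells (301 ± 3.68), and low in dividing ganglionic eminence progenitor-like cells (102 ± 8.35). The deep-layer mean pools unlike clusters, with the Hs3st4 and Tle4 cluster at 547 to 573 CPM in WT. It does not show that each of them lay above the upper-layer cluster. Smarca4 varied less among neural classes, from 299 ± 8.85 in striatal inhibitory neuron-like to 179 ± 15.4 in radial glia-like cells. Dpf2 ran from 52.1 ± 3.94 in intermediate progenitor-like to 19.4 ± 0.752 in upper-layer neuron-like cells, and Phf10 was highest in mural or meningeal-like cells (43.8 ± 8.55), with 10 of its 12 neighbours overlapping. Marked doublets, which were kept, made up 41.1% of the mural or meningeal-like and 24.2% of the dividing pallial progenitor-like cells. Their part in these levels was not tested.

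**Figure D2:**
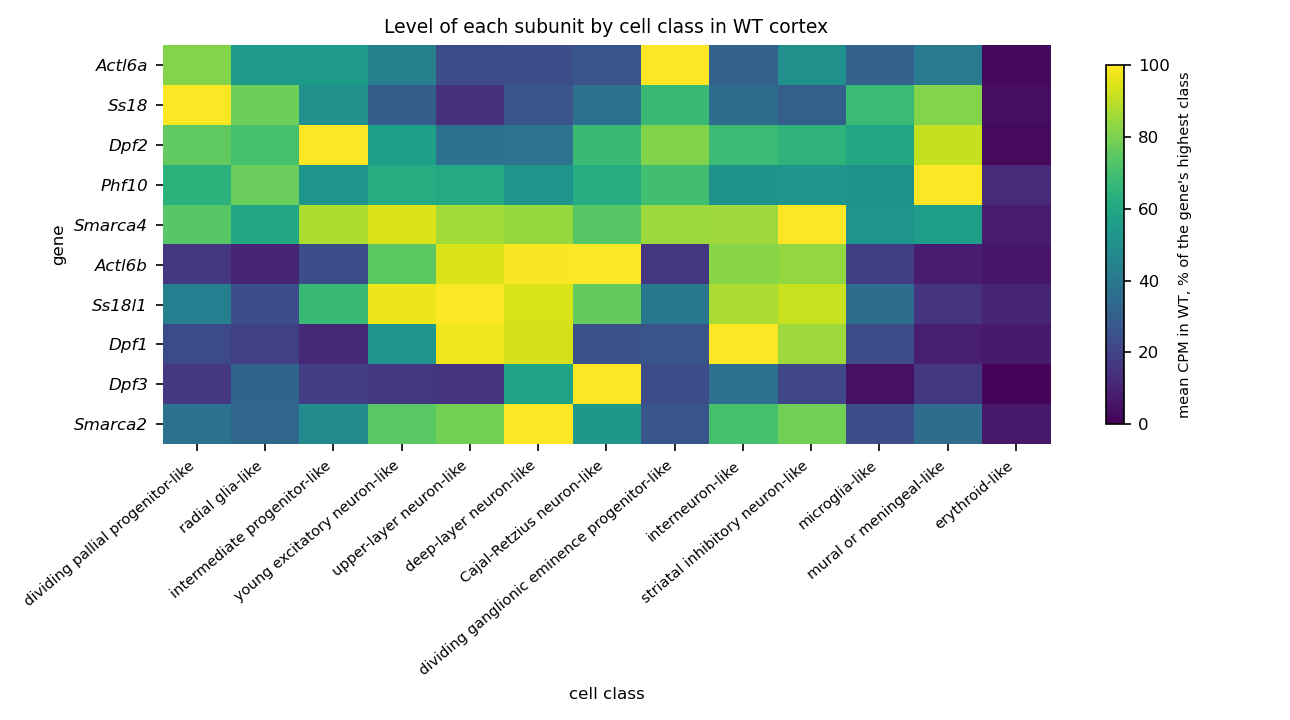
Mean level of each subunit (rows) in the 3 WT embryos over 13 named classes (columns), colored as percent of the CPM in the gene's own highest class, so that colors compare classes within a gene and not genes. Actl6b and Ss18l1 are high in the neuronal classes and Actl6a and Ss18 in the dividing ones. Dpf1 is high in interneuron-like, upper-layer and deep-layer neuron-like cells and low in Cajal-Retzius neuron-like cells. Of these classes Dpf3 is highest in Cajal-Retzius neuron-like and deep-layer neuron-like cells, and the latter pool clusters that differ in it.

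The genes whose levels were most like each member over the 13 classes were found among 9123 genes by Pearson's r of log2 CPM in WT. The classes came from the same 3 libraries, so r is a description. Actl6a was most like Dynlt1f (r = 0.991), Nrf1 (r = 0.986) and Sin3a (r = 0.986), and Actl6b most like Fam57b (r = 0.984), Nsg1 (r = 0.983) and Gm5468 (r = 0.982). Ss18 went with Gabpb2 (r = 0.970), Wrn (r = 0.968) and Etfa (r = 0.965), and Ss18l1 with Apc2 (r = 0.993), Dpysl5 (r = 0.991) and 9330159F19Rik (r = 0.990). Nearest to Phf10 were Klf13 (r = 0.986), Gorasp2 (r = 0.979) and Zfand3 (r = 0.977), and to Dpf2 Pggt1b (r = 0.992), Kdm6a (r = 0.990) and Mrpl39 (r = 0.987). Dpf1 was most like Lrrc7 (r = 0.987), B230334C09Rik (r = 0.985) and Ptpn5 (r = 0.976), and Dpf3, whose own mean was under 10 CPM, most like Tmem14a (r = 0.926), Dstn (r = 0.924) and Snx21 (r = 0.918). For Smarca4 the nearest were Bag6 (r = 0.996) and Atrx (r = 0.994), and for Smarca2 Zyg11b (r = 0.985), Gfod2 (r = 0.983) and Fam171a2 (r = 0.982). Between members, r was 0.94 for Actl6b and Ss18l1, 0.92 for Actl6a and Dpf2, and 0.11 for Actl6a and Actl6b, over classes that include erythroid-like cells, where every member was low.

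The genotype comparisons asked whether these levels differed between embryos that lack 1 or both working alleles of Gatad2b and WT embryos. Het and KO were compared with the same 3 WT embryos, so the 2 sets of values are not independent. Over all cells, where class makeup also enters, 4 members were called in KO, against 24.5% of all tested genes. Actl6a was higher (0.49 ± 0.0533 (SE, adjusted p = 8.52e-05)), Dpf3 was higher (0.70 ± 0.119 (SE, adjusted p = 0.00129)), Phf10 was higher (0.38 ± 0.0800 (SE, adjusted p = 0.00439)) and Actl6b was lower (-0.32 ± 0.0579 (SE, adjusted p = 0.0018)). In Het, 1 member was called, Actl6a (0.26 ± 0.05002 (SE, adjusted p = 0.0251)), against 2.98% of all genes. Within the prefix that KO shared with Het1 to Het3, 1 member was called, Dpf3 (0.56 ± 0.0946), against 6.14% of all genes. The members' share in KO exceeded that of all genes by fewer than 2 members. The Het call was lost when any 1 of WT1 to WT3 or Het1 to Het3 was left out, where the value ran from 0.22 to 0.28.

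Actl6a was higher in KO than in WT in each excitatory class. In progenitor-like cells it stood at 114, 114 and 115 CPM in the WT embryos, 143, 135, 132 and 130.4 CPM in the Het embryos and 142, 159 and 149 CPM in the KO embryos, and neither mutant group overlapped WT. In mature neuron-like cells it stood at 45.7, 42.7 and 43.0 CPM in the WT embryos, 53.0, 49.4, 45.7 and 48.5 CPM in the Het embryos and 55.3, 59.3 and 54.8 CPM in the KO embryos. There the KO embryos lay above all others, and the lowest Het embryo was level with the highest WT embryo. The KO log2 fold change was 0.39 ± 0.0570 (SE, adjusted p = 0.000527) in progenitor-like, 0.38 ± 0.0598 (SE, adjusted p = 0.000127) in young and 0.36 ± 0.0556 (SE, adjusted p = 0.000217) in mature neuron-like cells, which is a similar shift at each stage. Its stage difference did not differ between KO and WT by a test of the interaction (-0.01 ± 0.0595). Within the prefix the values were smaller, 0.13, 0.10 and 0.20, and none was called. A covariate for the prefix gave 0.33, 0.24 and 0.34, with a call in the mature class alone. The clusters of that class, taken alone, were not alike. KO exceeded Het1 to Het3 by a called 0.25 ± 0.0580 in the Fezf2 cluster, and by 0.24 ± 0.0729 in the upper-layer and 0.23 ± 0.0874 in the Crym cluster, neither called. In the Hs3st4 and Tle4 cluster the value was -0.08 ± 0.0818 within the prefix and 0.08 ± 0.0890 against WT, neither called, and the KO difference there was below that of the upper-layer cluster by a called interaction of -0.35 ± 0.0891.

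Actl6b was lower in KO. In young neurons it stood at 139, 147 and 150.3 CPM in the WT embryos, 126, 131, 134 and 134 CPM in the Het embryos and 120.5, 118 and 101 CPM in the KO embryos, so the 3 groups did not overlap. The KO log2 fold change was -0.36 ± 0.0603 (SE, adjusted p = 0.000209) in young neurons and -0.43 ± 0.115 (SE, adjusted p = 0.015) in progenitor-like cells, and in mature neuron-like cells, at -0.20 ± 0.0510, it was too small for a call. Within the prefix the 3 values were -0.21, -0.11 and -0.08, in the same direction and not called. The call in progenitor-like cells was lost without WT3 and without KO2, over values from -0.48 to -0.37 with 1 embryo left out at a time. Neuronal genes moved with genotype in both classes. In young neurons the 10 genes of the maturity list, all detected, summed to 2643 to 2706 CPM in WT, 1949 to 2222 CPM in Het and 1572 to 1941 CPM in KO. The 10 deep-layer markers there summed to 372 to 386 CPM in WT and 530.2 to 593 CPM in KO, the 8 upper-layer markers to 1325 to 1452 CPM and 1046 to 1151 CPM and the 9 intermediate progenitor markers to 356 to 389.8 CPM and 453 to 497 CPM, none overlapping. Of 17 marker lists, 5 were higher and 7 lower in KO than in WT without overlap in young neurons, and 3 and 7 in progenitor-like cells. In progenitor-like cells the maturity sum was 716 to 764 CPM in WT and 586 to 652 CPM in KO, and that of the 8 upper-layer neuron markers was 390.4 to 435 CPM and 284 to 314 CPM, neither with overlap. The 9 intermediate progenitor markers summed there to 1370 to 1413 CPM and 1848 to 1900 CPM, also apart. The part of these in the Actl6a, Actl6b, Phf10 and Smarca2 differences was not tested. Nor was the part of the Actl6b and Smarca2 background of erythroid-like cells, which differed between genotypes.

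Phf10 was called higher in KO in each excitatory class, by 0.42 ± 0.0880 in progenitor-like, 0.42 ± 0.0848 in young and 0.32 ± 0.0835 in mature neuron-like cells. In the mature class it stood at 25.1, 24.4 and 23.4 CPM in the WT embryos, 30.7, 31.5, 28.5 and 23.6 CPM in the Het embryos and 29.8, 31.2 and 30.0 CPM in the KO embryos. The Het values were listed in the order Het1 to Het4, and Het4, the one Het library with the WT prefix, lay among the WT embryos while Het1 to Het3 lay among the KO embryos. Within the prefix KO differed from Het1 to Het3 by 0.01 ± 0.0468 in mature neurons, and with the prefix as covariate the KO value was -0.04. In the mature class genotype and prefix cannot be told apart for this gene. In the radial glia-like cluster Phf10 stood at 33.8, 38.2 and 29.6 CPM in the WT embryos, 46.9, 41.1, 45.8 and 43.3 CPM in the Het embryos and 52.6, 58.8 and 48.5 CPM in the KO embryos. There Het4 lay above all 3 WT embryos of its own prefix, and KO lay above Het1 to Het3, with a difference within the prefix of 0.25 ± 0.104 that was not called.

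Dpf3 showed the largest difference of any member between genotypes, and it was placed in mature neurons. There it stood at 7.14, 8.55 and 8.12 CPM in the WT embryos, 10.0, 10.6, 9.25 and 11.02 CPM in the Het embryos and 23.2, 19.7 and 21.3 CPM in the KO embryos, and the 3 groups did not overlap. KO was 2.702-fold above WT, with a log2 fold change of 1.43 ± 0.0854 (SE, adjusted p = 7.07e-08), and Het differed from WT by 0.37 ± 0.0831 (SE, adjusted p = 0.0246), a call lost without WT1, WT3, Het1 or Het2 (values from 0.29 to 0.42). The Het call was also lost with the prefix as covariate and with classes gated on marker genes. Within the prefix KO exceeded Het1 to Het3 by 1.11 ± 0.0721 (SE, adjusted p = 1.17e-06). With the prefix as covariate KO exceeded WT by 1.58, still called. Het4 at 11.02 CPM lay above all 3 WT embryos of its own prefix. In progenitor-like cells Dpf3 differed by -0.24 ± 0.233 and in young neurons by 0.06 ± 0.198, neither called, and the change from progenitor-like to mature neuron-like cells was larger in KO than in WT by 1.68 ± 0.185 (SE, adjusted p = 5.12e-07).

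Smarca2 differed in opposite directions at the 2 ends of the lineage. In progenitor-like cells it stood at 160.4, 146 and 140.4 CPM in the WT embryos, 125, 125, 118 and 129 CPM in the Het embryos and 105, 109.9 and 108 CPM in the KO embryos, falling from group to group without overlap. In mature neuron-like cells the order was turned around, with 349.6, 348 and 319.6 CPM in the WT embryos, 368, 369, 367.1 and 379 CPM in the Het embryos and 419, 412 and 436 CPM in the KO embryos, again without overlap. Young neurons followed the progenitors, at -0.40 ± 0.0584 in KO. The KO log2 fold change was -0.47 ± 0.0604 (SE, adjusted p = 0.00029) in progenitor-like and 0.32 ± 0.0447 (SE, adjusted p = 0.000121) in mature neuron-like cells. Tested directly, the difference between the 2 classes was larger by 0.80 ± 0.0729 (SE, adjusted p = 3.37e-08) in KO and by 0.39 ± 0.0682 (SE, adjusted p = 0.00113) in Het than in WT. Within the prefix the values were -0.19 in progenitor-like, -0.35 in young and 0.20 in mature neuron-like cells, the same directions with a call in young neurons alone.

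In counts, 4 members were called in KO in progenitor-like cells (Actl6a, Phf10, Actl6b and Smarca2), where 22.9% of all genes were, 4 in young neurons (the same 4 by name), where 25.6% were, and 4 in mature neurons (Actl6a, Phf10, Dpf3 and Smarca2), where 27.2% were. With 10 members, these shares lay above the backgrounds by less than 2 members each. Het gave Smarca2 in progenitor-like cells (-0.26 ± 0.0563, lost without WT1, WT2, Het1, Het2, Het3 or KO3, with values from -0.30 to -0.20), against 3.51% of all genes, and Dpf3 in mature neurons, against 4.19%. Both Het calls were also lost with the prefix as covariate and with classes gated on marker genes. That of Smarca2 was lost too when KO was left out of the fit. In young neurons no member was called in Het, against 5.02% of all genes, with 3 at an unadjusted p under 0.05 by edgeR and 0 called by DESeq2. Within the prefix, KO against Het1 to Het3 gave no member in progenitor-like cells, against 2.91% of all genes, with 3 at an unadjusted p under 0.05 by edgeR. It gave Smarca2 alone in young neurons, against 7.36%, and Dpf3 alone in mature neurons, against 11.5%. In these 3 classes Dpf2, Ss18, Ss18l1, Smarca4 and Dpf1 were not called in either mutant. Het4 alone against WT1 to WT3, a comparison with 1 embryo on one side that assumes it to vary like the others, gave no member over all cells, in progenitor-like or in mature neuron-like cells, where 0.0109%, 0.00721% and 0.388% of all genes were called, and 1, 1 and 3 members had an unadjusted p under 0.05 by edgeR.

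The 3 progenitor clusters were also fitted one at a time, a choice made after their values had been seen and without leaving out embryos. The radial glia-like cluster gave 6 members in KO, where 21.0% of all genes were called. Actl6a (0.51 ± 0.0787), Dpf2 (0.40 ± 0.108) and Phf10 (0.68 ± 0.116) were higher, and Actl6b (-1.07 ± 0.220), Dpf1 (-0.53 ± 0.140) and Smarca2 (-0.41 ± 0.0874) were lower. Actl6b stood there at 18.9, 18.6 and 23.3 CPM in the WT embryos, 9.81, 9.90, 8.92 and 16.8 CPM in the Het embryos and 7.91, 8.81 and 11.1 CPM in the KO embryos, with both mutant groups below WT and Het4 the highest of the mutants. In Het, Actl6b (-0.78 ± 0.204) and Smarca2 (-0.40 ± 0.0824) were called, where 2.62% of genes were. Within the prefix none was, against 2.73% of genes, with 2 members at an unadjusted p under 0.05 by edgeR. This cluster scored 3.97 for oligodendrocyte precursor and 3.46 for radial glia markers. At resolution 0.8, 185 cells formed a separate oligodendrocyte precursor-like cluster. In the progenitor-like class the 5 precursor markers summed to 162 to 207 CPM in WT and 49.9 to 77.1 CPM in KO, without overlap. The part of such cells, and of the background seen in erythroid-like cells, in the values of this cluster was not tested. The dividing cluster gave Actl6a (0.48 ± 0.0986) and Smarca4 (0.31 ± 0.0831) in KO, both higher, where 4.42% were called, and 9 of the 10 members could be tested there. Neither Het nor KO within the prefix gave a member in that cluster, where 0.00937% and 0.0602% of genes were called and 2 and 0 members had an unadjusted p under 0.05. In the intermediate progenitor-like cluster KO gave 3 members, Actl6a higher and Actl6b and Smarca2 lower, where 14.9% of genes were called. Het gave none there, where 0.650% of genes were called and 4 members had an unadjusted p under 0.05.

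For the interaction of class and genotype, 4 members passed in KO, where 18.8% of all genes did: Dpf3 and Smarca2 as above, Ss18 (0.38 ± 0.0936) and Dpf1 (0.25 ± 0.0873). In Het 1 member passed, Smarca2, where 4.84% did. Ss18 stood at 34.3, 36.9 and 39.97 CPM in WT and 33.1, 33.9 and 32.5 CPM in KO progenitor-like cells, and at 10.1, 10.6 and 10.4 CPM and 13.4, 11.8 and 10.7 CPM in mature neurons. Its fall over the summed classes was thus smaller in KO. The mix of clusters moved too: cluster 12, with the highest mean Ss18 of the 3 (39.5 to 58.9 CPM in WT), made up 32.4 to 39.7% of the progenitor-like cells of a WT embryo and 21.7 to 26.5% of a KO embryo, and cluster 8, with the lowest (23.6 to 31.3 CPM), 35.3 to 39.1% and 46.4 to 50.3%. In Het1 to Het4, in order, cluster 12 held 140 of 593, 124 of 476, 114 of 455 and 247 of 797 progenitor-like cells. Cluster 8 held 295, 222, 208 and 348 of the same cells. Het1 to Het3 share the KO prefix and Het4 that of WT, so for this mix genotype and prefix cannot be told apart. Fitted one at a time, none of the 3 progenitor and 4 mature clusters gave a call for Ss18 in KO. The log2 fold changes were -0.28 ± 0.150 in cluster 12 and 0.23 ± 0.119 in cluster 0, the lowest and the highest of the 7. The part of the mix in the interaction was not tested. With prefix-by-class terms Dpf3 and Smarca2 were still called and Ss18 and Dpf1 were not. Dpf1 was also lost without WT2, WT3, Het3 or KO3 (values from 0.19 to 0.31).

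**Figure D3:**
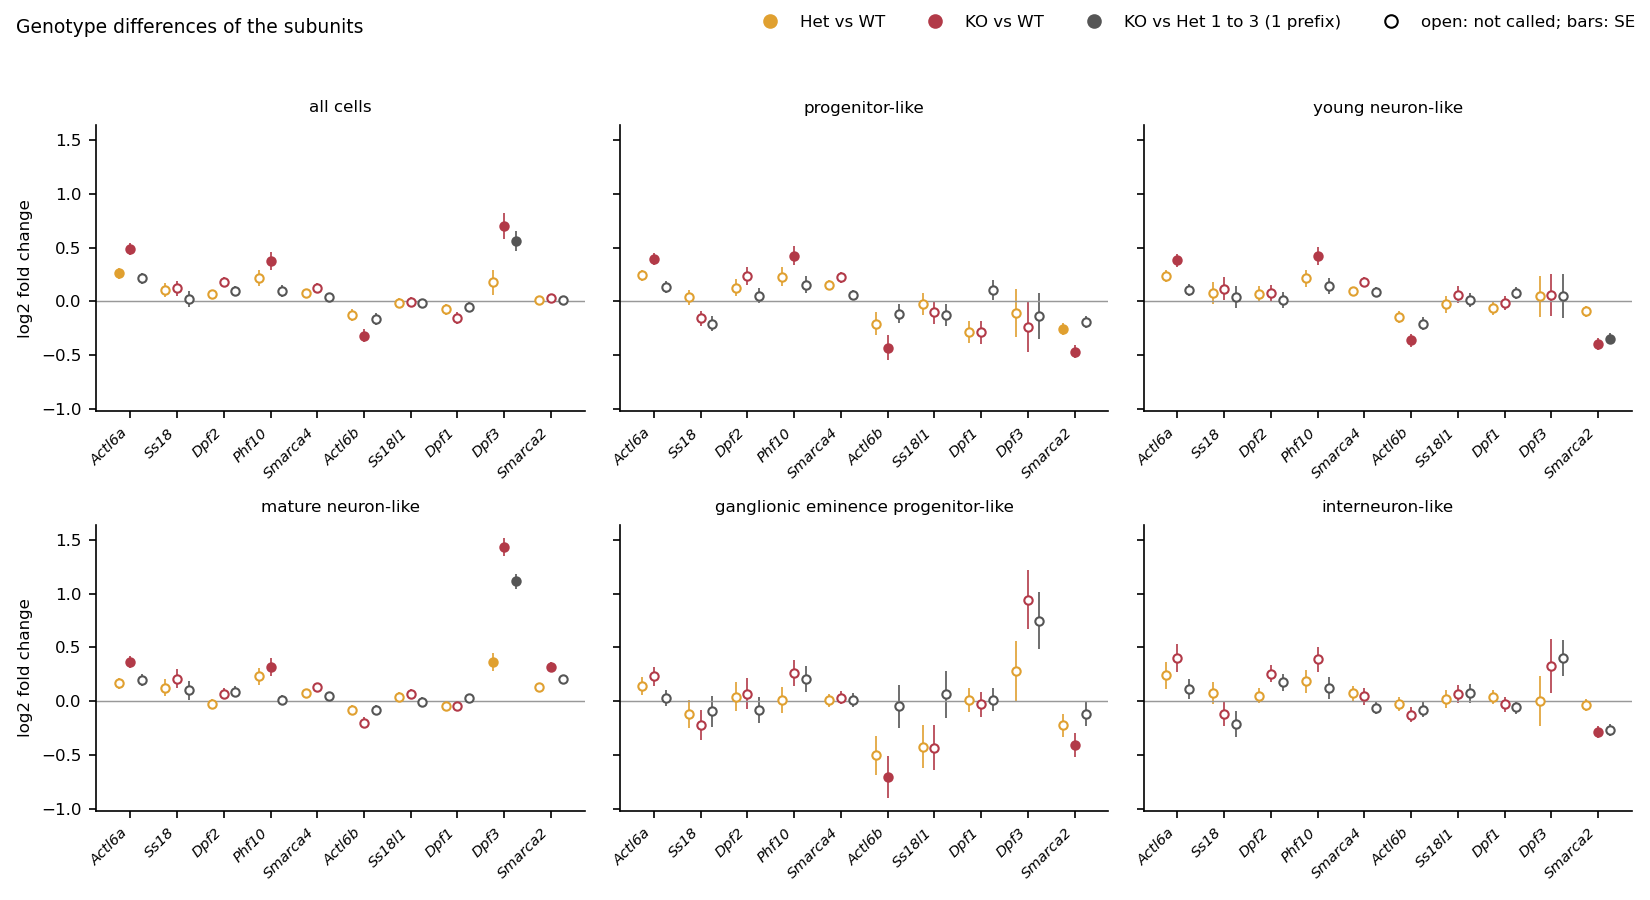
Log2 fold change (points, bars ± SE) of each subunit for Het against WT, KO against WT and KO against Het1 to Het3, which share a library prefix, over all cells and in 5 classes. Filled points were called and open points were not. Dpf3 stands far above 0 in mature neurons in KO, Smarca2 is below 0 in progenitor-like and young cells and above it in mature ones, and Phf10 returns to near 0 in mature neurons within the prefix.

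The mature class was mixed, and the mix moved with genotype. Cluster 0, the upper-layer cluster, held 46.3 to 53.7% of the class in WT, 37.4 to 44.6% of it in the Het embryos and 33.9 to 40.3% in KO. All 8 upper-layer markers were detected in the class, summing to 2860 to 3075 CPM in WT, 2295 to 2481 CPM in the Het embryos and 1867 to 2053 CPM in the KO embryos. All 10 deep-layer markers were detected too, at 1006 to 1140, 1124 to 1501 and 1598 to 1843. The 9 intermediate progenitor markers, of which 8 reached 1 CPM, summed to 107 to 113, 125 to 147 and 162 to 183 CPM, without overlap, and the 13 interneuron markers, of which 12 did, to 187 to 227 CPM in WT and 92.6 to 150.1 CPM in KO. In all, 5 of the 17 lists were higher and 7 lower in KO than in WT without overlap in this class. Their part in the member values was not tested. The 4 clusters were therefore also compared one at a time, a choice made after their values had been seen.

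In the Fezf2 cluster, whose leading gene specifies subcortically projecting neurons of layer V, Dpf3 stood at 2.38, 2.49 and 2.51 CPM in the WT embryos, 5.39, 5.21, 4.87 and 6.45 CPM in the Het embryos and 26.2, 23.1 and 25.3 CPM in the KO embryos. It was low in WT, higher in every Het embryo and higher again in every KO embryo, so the 3 groups did not overlap. KO was 10.4-fold above WT (3.38 ± 0.132 (SE, adjusted p = 6.05e-11)), where 24.1% of all genes were called. Het was above WT by 1.2 ± 0.154 (SE, adjusted p = 0.000896), where 2.12% were, and within the prefix KO exceeded Het1 to Het3 by 2.29 ± 0.106, where 11.3% were. The WT values rested on 21 to 39 UMIs of Dpf3 per embryo. As given above, this cluster scored 1.04 for upper-layer and 0.887 for deep-layer markers. At resolution 0.8, 1973 cells that share some of its leading genes were named upper-layer neuron-like. The part of such cells in the Dpf3 values was not tested.

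In the Hs3st4 and Tle4 cluster, of the corticothalamic layer VI type by those genes, Dpf3 was already present in WT. It stood at 19.2, 18.0 and 17.6 CPM in the WT embryos, 26.4, 22.1, 24.6 and 23.6 CPM in the Het embryos and 48.4, 50.4 and 50.3 CPM in the KO embryos, with no overlap between groups. The KO difference was 1.51 ± 0.0882 (SE, adjusted p = 1.84e-10), where 22.2% of genes were called, the Het difference 0.44 ± 0.0904, where 1.70% were, and the difference within the prefix 1.06 ± 0.0948, where 9.47% were. In the Crym cluster Dpf3 stood at 20.7, 26.6 and 22.3 CPM in the WT embryos, 20.8, 22.6, 19.3 and 24.3 CPM in the Het embryos and 24.7, 20.2 and 26.7 CPM in the KO embryos, so WT and KO overlapped, and the difference of 0.08 ± 0.119 was not called, where 17.0% of genes were. No member was called in that cluster in Het or in KO within the prefix, where 0.407% and 4.95% of genes were and 2 and 1 members had an unadjusted p under 0.05. In the upper-layer cluster it was low in all genotypes, and the difference of 0.38 ± 0.248 was not called, where 27.0% were. Het gave no member in that cluster, where 5.10% of genes were called and 1 member had an unadjusted p under 0.05. Against the upper-layer cluster, the KO difference of Dpf3 was larger by 3.03 ± 0.258 (SE, adjusted p = 3.53e-10) in the Fezf2 cluster and by 1.16 ± 0.225 (SE, adjusted p = 0.000276) in the Hs3st4 and Tle4 cluster, and it did not differ by the test in the Crym cluster (-0.30 ± 0.224). Of all genes, 6.46%, 11.6% and 7.09% passed these 3 tests. The same term in Het was 1.51 ± 0.276 in the Fezf2 cluster, where 0.243% of genes passed.

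The higher Smarca2 of KO mature neurons was found in the same 2 deep-layer clusters. In the Hs3st4 and Tle4 cluster it stood at 554, 573 and 547 CPM in the WT embryos, 559.7, 616, 564 and 577 CPM in the Het embryos and 773, 804 and 878 CPM in the KO embryos, and the KO difference was 0.62 ± 0.0640 (SE, adjusted p = 3.74e-07). In the Fezf2 cluster it was 0.42 ± 0.0578 (SE, adjusted p = 4.63e-05). In the upper-layer cluster Smarca2 stood at 301, 297 and 305 CPM in the WT embryos, 304, 306, 334 and 312 CPM in the Het embryos and 266, 247 and 276 CPM in the KO embryos, with KO below WT and Het. The log2 fold change of -0.16 ± 0.0488 against WT was not called, and that of -0.26 ± 0.0492 within the prefix was, where 10.9% of genes were called. In the Hs3st4 and Tle4 and the Fezf2 clusters Smarca2 was called higher within the prefix, by 0.53 ± 0.0643 and 0.25 ± 0.0531. The KO difference against that of the upper-layer cluster was 0.59 ± 0.0614 (SE, adjusted p = 1.95e-08) in the Fezf2, 0.80 ± 0.0617 (SE, adjusted p = 7.69e-12) in the Hs3st4 and Tle4 and 0.27 ± 0.0633 (SE, adjusted p = 0.00372) in the Crym cluster. Among progenitors, the intermediate progenitor-like cluster had Smarca2 lower in KO, with a log2 fold change of -0.63 ± 0.0682, where 14.9% of genes were called, and of -0.40 ± 0.0674 within the prefix, where 3.58% were. In the radial glia-like cluster it was -0.41 ± 0.0874 against WT and 0.07 ± 0.0838 within the prefix, so the direction turned there. Intermediate progenitor markers, 9 of 9 detected in the progenitor-like class, summed to 1370 to 1413 CPM in WT, 1680 to 1930 CPM in the Het embryos and 1848 to 1900 CPM in the KO embryos, and the 5 oligodendrocyte precursor markers to 162 to 207, 67.7 to 173 and 49.9 to 77.1. Their part in the progenitor results was not tested.

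**Figure D4:**
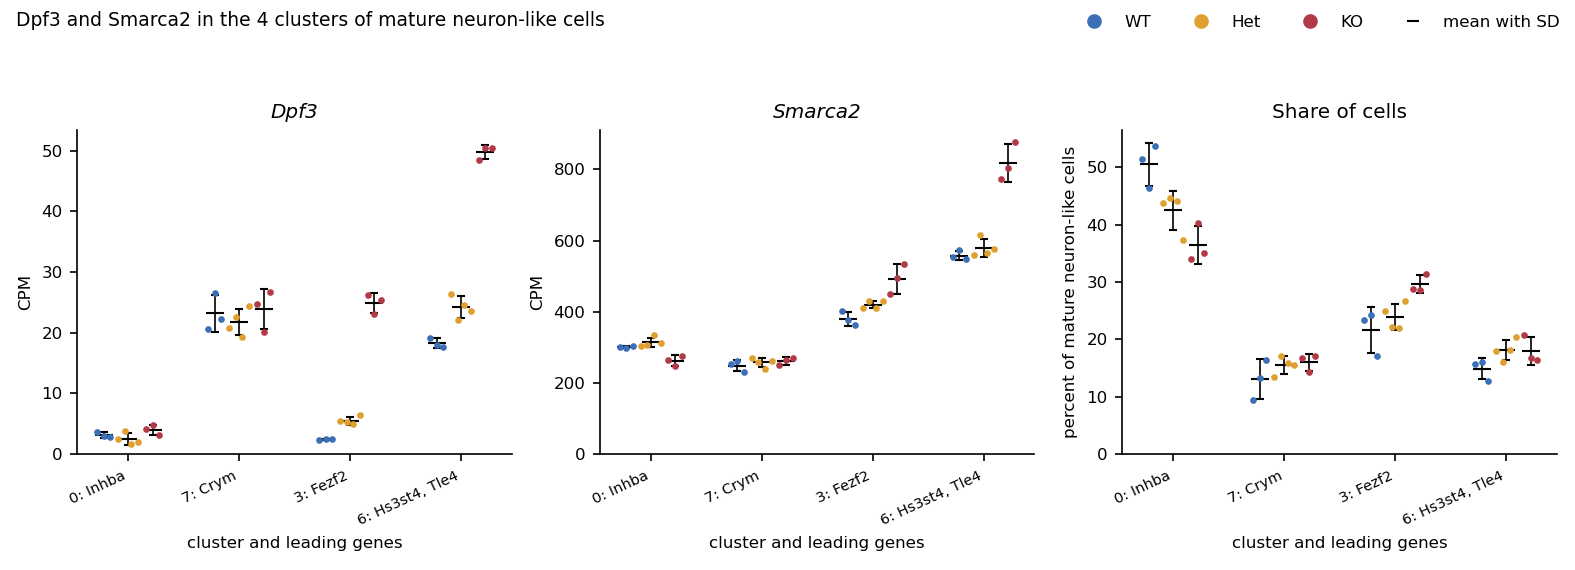
Plain CPM of Dpf3 (left) and Smarca2 (middle) in each embryo within the 4 clusters of the mature neuron-like class, and the share of the class held by each cluster (right, percent of cells). Points are embryos and bars are the mean with SD of each genotype. Dpf3 climbs from WT through Het to KO in the Fezf2 and the Hs3st4 and Tle4 clusters, while the groups lie close together in the Crym cluster.

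In the inhibitory lineage the genotype values were less certain, and the part of the background seen in erythroid-like cells was not tested. In ganglionic eminence progenitor-like cells 2 members were called in KO, Actl6b (-0.71 ± 0.194 (SE, adjusted p = 0.048)) and Smarca2 (-0.41 ± 0.112 (SE, adjusted p = 0.0489)), where 4.18% of all genes were. Actl6b stood at 29.9, 35.7 and 29.0 CPM in the WT embryos, 18.1, 18.97, 22.8 and 27.5 CPM in the Het embryos and 24.4, 13.4 and 20.5 CPM in the KO embryos, so that KO and Het overlapped each other and both lay below WT. In the same class the 8 upper-layer neuron markers summed to 309 to 439.9 CPM in WT and 190.0 to 239 CPM in KO and the 10 maturity genes to 413 to 516 CPM and 305 to 391 CPM, without overlap, and their part in the Actl6b and Smarca2 values was not tested. Both calls were lost without doublets, without any 1 of WT1 to WT3, Het3, KO2 or KO3 (Smarca2 also without Het1; values from -0.90 to -0.51 and -0.51 to -0.35), and within the prefix, where no member and 0.140% of genes were called, with 1 member at an unadjusted p under 0.05 by edgeR. In interneuron-like cells Smarca2 alone was called in KO, at 279, 258 and 267 CPM in the WT embryos, 264, 268, 262 and 251 CPM in the Het embryos and 232, 213 and 213 CPM in the KO embryos, a log2 fold change of -0.29 ± 0.0577 (SE, adjusted p = 0.0118), where 8.11% of genes were called. The KO embryos lay below all others. In the same class the 8 upper-layer neuron markers summed to 1327 to 1693 CPM in WT and 1041 to 1192 CPM in KO, the 9 intermediate progenitor markers to 73.5 to 94.0 CPM and 129 to 177 CPM and the 10 striatal inhibitory neuron markers to 401 to 449.8 CPM and 476 to 529 CPM, none overlapping. Of the 17 lists, 4 were higher and 5 lower in KO without overlap, and their part in the Smarca2 value was not tested. The call was lost without WT3, KO2 or KO3 (values from -0.32 to -0.26). Within the prefix the value was -0.27 ± 0.0554, not called, as for all members (2 of 10 at an unadjusted p under 0.05 by edgeR), where 0.675% of genes were. In Het no member was called in either class, where 0.0452% and 0% of genes were. By edgeR 3 and 0 members had an unadjusted p under 0.05, and DESeq2 called 0 and 0.

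Of the 19 other BAF genes, Brd9, a bromodomain subunit of the non-canonical form, was lower in KO in all 6 sets of cells, from -0.35 ± 0.0891 in ganglionic eminence progenitor-like cells to -0.26 ± 0.0588 in young neurons, though within the prefix it was 0.11 in the former. Smarcd1 was lower over all cells (-0.36 ± 0.0944) and in young (-0.29 ± 0.0867), mature (-0.40 ± 0.0957), ganglionic eminence progenitor-like (-0.35 ± 0.0930) and interneuron-like cells (-0.37 ± 0.0821). Actb was higher over all cells (0.42 ± 0.0972) and in progenitor-like (0.28 ± 0.0864), young (0.56 ± 0.0559), mature (0.42 ± 0.0898) and interneuron-like cells (0.51 ± 0.0959), and in Het in young neurons (0.31 ± 0.0525). Smarcd2 was higher over all cells (0.26 ± 0.0829) and in young neurons (0.58 ± 0.160, and 0.51 ± 0.149 within the prefix). Smarcd3 was higher in progenitor-like cells (0.28 ± 0.0838) and its stage difference smaller in KO (-0.32 ± 0.0646). Bcl7b was lower in young (-0.33 ± 0.0698) and mature neurons (-0.27 ± 0.0392), and Bcl7c was higher in interneuron-like cells (0.28 ± 0.0633). Of these KO calls against WT within a set of cells, that of Smarcd2 in young neurons was the only one also made within the prefix, where KO was set against Het1 to Het3. Within the prefix none of the 19 genes was called over all cells or in progenitor-like, mature, ganglionic eminence progenitor-like or interneuron-like cells. There 3, 3, 4, 0 and 0 of them had an unadjusted p under 0.05 by edgeR. With the prefix as covariate Smarcd1 was 0.01 over all cells, 0.06 in young neurons, 7.9e-05 in mature neurons and 0.01 in ganglionic eminence progenitor-like cells, and Actb was -0.0023 over all cells and -0.07 in progenitor-like cells. Those differences were thus not kept with that term, and no reversal is read from such small values.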

How the data were processed

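Single-cell RNA sequencing counts of 10 embryos were used, and columns of per-sample values not used numbered 0. Per the labels and the submitters' processing notes, the authors aligned reads to mm10 with Cell Ranger 6.0.2 (the methods name an earlier release) and deposited raw UMI counts per gene and barcode, with no cell annotation. Counts on near-identical copies or overlapping genes may be split by that step. The members and gene lists used here were chosen with earlier results of these data known.

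The study's limits of 1000 UMIs per cell and 10% mitochondrial UMIs were applied. The cell total after these limits lies below that in the study's methods and above that in its results text. Cells were clustered with Seurat 5.3.0 (2000 variable genes, 30 principal components, resolution 0.4) into 25 clusters. BAF genes, Gatad2b, sex, hemoglobin, rDNA and mitochondrial genes were left out before the 2000 were taken. Of the BAF genes, 1, Smarca2, had been among the variable genes. Embryos were integrated by reciprocal principal component analysis before clustering, so embryos of all genotypes and both prefixes were drawn into shared clusters. The part of that step in the genotype values was not tested. A cluster was named "X-like" from markers when its score reached 0.5 with at least 3 markers found in 10% of its cells, near ties within 0.6 being decided by markers among its top 10 genes. Clusters with over 50% doublets were not named. These limits were set after marker scores had been seen, and 5 clusters stayed unnamed. The doublet caller (scanpy 1.11.5) marked 0.0341% to 2.53% of an embryo's cells by its own threshold, so the expected share, 4.80% to 8.31%, was marked instead. Marked cells were kept, and removed in an alternative. Cell names rebuilt in this way may differ from those of the study.

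UMI counts were summed per embryo and class (at least 20 cells in every embryo) and tested with edgeR 4.0.16: filterByExpr, TMM scaling and the quasi-likelihood F-test, with the embryo as a block between classes and the 3 genotypes in one fit within a class. A call needed an adjusted p (Benjamini-Hochberg, over all genes tested) under 0.05 and an absolute log2 fold change over 0.25. Embryos were separate animals. Replicate numbers did not pair the samples. Alternatives were DESeq2 1.42.0, its size factors, no filter on low counts, stricter cell limits, resolution 0.8, classes gated on marker genes, a replicate block, the library prefix as covariate and each embryo left out. Fits of single clusters and their interaction terms were chosen after seeing the data. The genes named were all 10 members, the other BAF genes that were called, at most 4 per direction between classes, and the 3 genes most like each member. For Smarca4, 1 of those 3 is not reported here. The fits were tested on simulated data. R 4.3.3 and Python 3.11.15 were used.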

Additional observations from a re-analysis of the deposited data

Results flagged for a closer look

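Among 60 sets of 4 Het values, 4 held an embryo that stood far from the other 3 for the group's range (Dixon's ratio), where chance gives about 1 in 20. Actl6a over all cells was 80.2 CPM in Het1 against 72.0 to 72.7 in the other Het embryos. Dpf1 in progenitor-like cells was 25.8 CPM in Het4 against 19.8 to 20.6, and Smarca2 in mature neuron-like cells was 379 CPM in Het4 against 367.1 to 369. Het4 shares its library prefix with WT1 to WT3. Ss18 in interneuron-like cells was 21.7 CPM in Het1 against 19.01 to 19.25.

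The difference between mature neuron-like and progenitor-like cells depended on genotype for 4 members in KO, by an interaction term in edgeR on the log2 scale that 18.8% of all genes passed. These were Dpf3 (1.68 ± 0.185, SE), Smarca2 (0.80 ± 0.0729), Ss18 (0.38 ± 0.0936) and Dpf1 (0.25 ± 0.0873), and in Het Smarca2 passed at 0.39 ± 0.0682, where 4.84% of all genes did. For Smarca2 the direction against WT differed between the classes. For Ss18 the fall over the summed classes was smaller in KO. Cluster 12, the progenitor cluster with the highest mean Ss18, made up 21.7% to 26.5% of progenitor-like cells in KO against 32.4% to 39.7% in WT. In Het1 to Het4, in order, it held 140 of 593, 124 of 476, 114 of 455 and 247 of 797 such cells. Het1 to Het3 share the KO prefix and Het4 that of WT, so for this mix genotype and prefix cannot be told apart. The part of the mix in the Ss18 term was not tested. With prefix-by-class terms the Ss18 and Dpf1 terms were not called.

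Within the mature neuron-like class, the KO difference against WT was larger in the Fezf2 cluster than in the upper-layer cluster for Dpf3 (3.03 ± 0.258), Smarca2 (0.59 ± 0.0614) and Phf10 (0.31 ± 0.0891), and the Het difference was for Dpf3 (1.51 ± 0.276). In the Hs3st4 and Tle4 cluster the same term was 1.16 ± 0.225 for Dpf3, 0.80 ± 0.0617 for Smarca2 and -0.35 ± 0.0891 for Actl6a, and in the Crym cluster it was 0.27 ± 0.0633 for Smarca2. These cluster terms were chosen after the values by cluster had been seen.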

How the results depend on the processing

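Of the members' tested differences, those between classes were the most stable. There 672 of 677 alternative values kept their direction and side of the threshold. The count of members called stayed within 1.5 times under every alternative run. The exceptions included Dpf3, whose steps with marker-gated classes were 0.97 (progenitor-like to young) and -0.45 (young to mature), and whose KO difference in young neurons was then -0.62. Of 1067 alternative values between genotypes, 898 held, 104 fell below the threshold, 54 passed it and 11 reversed, and of 198 for the interaction 171 held. The largest shift of the median of all genes between scalings was 0.0213 on the log2 scale. Depth limited Dpf3 in WT, where the Fezf2 cluster held 21 to 39 UMIs per embryo.

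With the prefix as covariate, members called fell in KO from 4 to 2 over all cells, to 0 in progenitor-like and 2 in young neuron-like cells, and to 0 in ganglionic eminence progenitor-like and interneuron-like cells, where 8.31%, 2.91%, 9.18%, 0.0994% and 0.187% of all genes were called in those fits. In Het they fell to 0 over all cells and in progenitor-like and mature neuron-like cells, with 0.232%, 0% and 1.01% of all genes. Het4 against WT also gave 0 in those sets, with 1 embryo in an arm and 0.0109%, 0.00721% and 0.388% of all genes called, and says nothing on stability. With prefix-by-class terms the KO interaction fell from 4 to 2, with 8.22% of all genes. KO against Het1 to Het3 gave 1 over all cells, 0 in progenitor-like, 1 in young, 1 in mature, 0 in ganglionic eminence progenitor-like and 0 in interneuron-like cells, with 6.14%, 2.91%, 7.36%, 11.5%, 0.140% and 0.675% of all genes. Values whose sign changed with the prefix term were Smarcd1 (0.00530 over all cells, 0.0573 young, 7.9e-05 mature, 0.00694 ganglionic eminence), Actb (-0.0023 over all cells, -0.0679 progenitor-like) and Phf10 (-0.0376 mature), and within the prefix Actb (-0.0240 progenitor-like), Smarcd1 (0.0193) and Brd9 (0.11) in ganglionic eminence cells. These values were small, and no reversal is read from the changes of sign. The cause was not tested.

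In single clusters, Het gave 0 members in clusters 0, 7, 8 and 12, 1 in clusters 3 and 6 and 2 in cluster 13, where 0.00937% to 5.10% of all genes were called. KO gave 2 in clusters 0, 7 and 12, 3 in clusters 6 and 8, 4 in cluster 3 and 6 in cluster 13, where 4.42% to 27.0% were. Within the prefix KO gave 0 in clusters 7, 12 and 13, 1 in clusters 0 and 8, 2 in cluster 6 and 3 in cluster 3, where 0.0602% to 11.3% were. Values of the opposite sign there, several of them small, were Dpf3 in Het (-0.29 in cluster 0, -0.0813 in cluster 7), Smarca2 in KO (-0.16 in cluster 0) and, within the prefix, Phf10 (-0.0500 in cluster 12, -0.0210 in cluster 0, -0.0312 in cluster 6), Smarca2 (0.0681 in cluster 13, -0.26 in cluster 0) and Actl6a (-0.0770 in cluster 6).

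Other choices moved small counts, given here with the share of all genes called in the same fit. Marker gates gave 2 members for the Het interaction (2.21%), 0 in Het progenitor-like (0.244%), 0 in Het mature neuron-like (3.42%) and 3 in KO interneuron-like cells (12.8%). Progenitors without the mitotic cluster gave 2 for the Het interaction (4.09%) and 3 in Het progenitor-like cells (2.49%). With the other group left out of the fit, Het gave 0 over all cells (0.914%) and 0 in progenitor-like cells (1.2%) and KO 2 in interneuron-like cells (9.74%). Resolution 0.8 gave 1 in Het young neurons (4.30%), and no filter on low counts gave 1 in Het ganglionic eminence progenitor-like cells (1.94%). The KO ganglionic eminence count fell from 2 to 0 without doublets (4.22%) and at 5% mitochondrial UMIs (3.49%). The KO interneuron-like count rose from 1 to 2 with DESeq2 (8.23%) and to 3 with no filter (5.68%) or at 3000 UMIs (7.09%).

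With 1 embryo left out at a time, members called ran from 1 to 2 for the Het interaction (moved by Het4), 0 to 2 in Het over all cells (each WT and Het embryo), 0 to 4 in Het progenitor-like cells (WT1, WT2, Het1, Het2, Het4, KO3), 0 to 2 in Het young (WT1, Het4) and 0 to 2 in Het mature neurons (WT1, WT3, Het1, Het2, Het4), 0 to 2 in KO ganglionic eminence progenitor-like cells (WT1 to WT3, Het1, Het3, KO2, KO3) and 0 to 3 in KO interneuron-like cells (WT1 to WT3, Het1, Het4, KO2, KO3). In the same order the share of all genes called ran from 2.86% to 4.81%, 0.414% to 10.4%, 0.144% to 8.28%, 1.21% to 9.99%, 1.59% to 9.88%, 0.955% to 6.60% and 2.35% to 10.6%.

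Replicate numbers did not pair the embryos: of 9 same-number pairs 2 had a correlation of deviations over 0.1 (-0.64 to 0.13), and 0 embryos correlated best with their own number. With the replicate block, Het counts were 2 over all cells, 4 in progenitor-like, 2 in young and 2 in mature neurons (1850 of 17647 genes over all cells, then 8.10%, 10.2% and 9.69%), and KO counts 4, 5, 4 and 4 (26.2%, 23.9%, 27.1% and 28.4%), with 4 in interneuron-like cells (12.8%).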
